A study of Bos taurus with 9 samples.

Results

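Collagen chain genes encode the alpha chains from which collagens are built. Members were the rows of the deposited gene table whose symbol consists of COL, a number, the letter A and a number. This rule found 45 of 21512 genes. The table writes 39 of these symbols in capitals and 6 in mixed case (Col4a1, Col4a4, Col6a4, Col8a2, Col9a2 and Col16a1), and all are written in capitals here. By the kind of structure that their chains form, 11 were grouped as fibrillar, 6 as basement membrane and 28 as other collagens. RNA was sequenced in 9 samples of Bos taurus cells, all wild type by their labels, with 3 samples in each of 3 groups. BEFs are fibroblasts that grew out of pieces of ear margin, kept in serum medium and collected on day 0. CiADCs-3d and CiADCs-6d, the chemically induced adipocyte-like cells, are BEFs kept for 3 and 6 days in N2B27 medium with VPA at 500 µg/mL, TTNPB at 1 µM and RepSox at 10 µM. VPA inhibits histone deacetylases, TTNPB is an agonist of retinoic acid receptors and RepSox is an inhibitor of the kinase of the type I TGF-beta receptor. No sample spent 3 or 6 days without the compounds, so that compounds, medium and time cannot be told apart. Nothing in the sources used here says whether the samples of a group came from separate animals or separate inductions, so the p-values measure only the spread between these samples.

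A collagen is made of alpha chains wound into a triple helix. Collagens I, II, III, V and XI assemble into fibrils, the load-bearing cords of skin, tendon and cartilage, and the fibroblasts of the skin are a main source of collagens I, III and V. Collagen IV forms the sheet-like network of basement membranes, which also surround each fat cell, and collagen VI forms beaded filaments between that network and the fibrils. The remaining types sit on fibril surfaces, form other networks, anchor epithelia or span the cell membrane.

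Values are given in 2 units. CPM (counts scaled by library size with TMM) serve to compare a gene between groups. FPKM are the authors' values per length of the gene and serve to compare genes with each other. Library totals ranged over 18509244 to 24071580 counts. All p-values for genes come from edgeR's quasi-likelihood test over the 14020 genes that passed a filter on low counts, with Benjamini-Hochberg adjustment over those genes. A gene was called higher or lower at an adjusted p under 0.05, provided that its log2 fold change was 1 or more in size. SE is the standard error of a log2 fold change, and levels with ± are the mean and SD of the 3 samples of a group. On the second principal component, CiADCs-3d replicate 1 was at -18.8 and CiADCs-6d replicate 1 at 11.6, each nearer to the other day than the other samples of its group, which were at -46.8 and -39.8 on day 3 and at 38.8 and 40.7 on day 6. Among markers of other cells, EMCN (endothelium) and MLANA and TYR (melanocytes) had no count in any sample. Of the 6 blood cell markers PTPRC had no count either, while the 3 tested ones, CD14, CD68 and CSF1R, were called higher on both days, and the list summed to 1.17 to 1.82 CPM in BEFs, 45.6 to 47.7 CPM in CiADCs-3d and 64.5 to 80.5 CPM in CiADCs-6d, most of it CD14 in CiADCs. Their part in the values of the collagen genes was not tested. On each day, 4 of 9 tested adipocyte markers were called higher than in BEFs and 2 lower, where 18.2% and 21.9% of all tested genes were higher and 9.94% and 13.4% lower on days 3 and 6. ADIPOQ, a higher one, was at 1.15 ± 0.714 CPM in BEFs, 4.86 ± 0.431 CPM in CiADCs-3d and 3.97 ± 0.384 CPM in CiADCs-6d, and FABP4, a lower one, at 10.9 ± 0.667 CPM in BEFs, 5.34 ± 3.05 CPM in CiADCs-3d and 0.863 ± 0.461 CPM in CiADCs-6d. The 10 adipocyte markers summed to 27.8 to 33.7 CPM in BEFs, 41.4 to 56.2 CPM in CiADCs-3d and 30.2 to 33.1 CPM in CiADCs-6d, so that day 6 lay within the range of BEFs. The 10 fibroblast markers held 1 higher and 3 lower calls in CiADCs-3d and 4 lower calls in CiADCs-6d. The shares of all tested genes are those given for the adipocyte markers. They summed to 42002 to 43294 CPM in BEFs, 29400 to 34835 CPM in CiADCs-3d and 20266 to 28764 CPM in CiADCs-6d. Most of the sum was FN1, at 26505, 23096 and 18131 CPM in these groups and not called. VIM, called lower on both days, was at 9757, 2067 and 1169 CPM. S100A4 was the higher call, and PDGFRA and PDGFRB were higher on day 3 by adjusted p alone. In such bulk samples, fewer cells of a type and less RNA per cell cannot be told apart.

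Collagen genes took up a smaller share of the RNA in both groups of CiADCs than in BEFs. Of all counts, 9.06%, 8.97% and 8.56% fell on the 45 genes in the 3 BEFs samples, 3.70%, 4.52% and 4.70% in CiADCs-3d and 3.07%, 2.83% and 3.00% in CiADCs-6d. No sample of a group reached the range of another group. Each of these shares has a 95% Wilson interval of at most 0.012 percentage points to either side, which covers counting error only. The means were 8.86 ± 0.264%, 4.31 ± 0.534% and 2.97 ± 0.123% in BEFs, CiADCs-3d and CiADCs-6d (SD, n = 3 each), given as a description with no test. Fibrillar collagens made up 5.71 ± 0.255% of all counts on day 0, 2.70 ± 0.552% on day 3 and 1.68 ± 0.239% on day 6. Collagen VI, through COL6A1, COL6A2 and COL6A3, made up 2.58 ± 0.0471%, 1.3 ± 0.0283% and 1.07 ± 0.162% on days 0, 3 and 6. Basement membrane collagens were a minor part throughout, at 0.0316 ± 0.00230% on day 0 (BEFs), 0.0171 ± 0.00235% on day 3 and 0.0158 ± 0.00213% on day 6. Without COL1A1, COL1A2 and COL3A1, the share was 4.01 ± 0.0593% on day 0 (BEFs), 1.90 ± 0.0316% on day 3 and 1.51 ± 0.165% on day 6, so that the drop was not limited to these 3 genes.

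**Figure D1:**
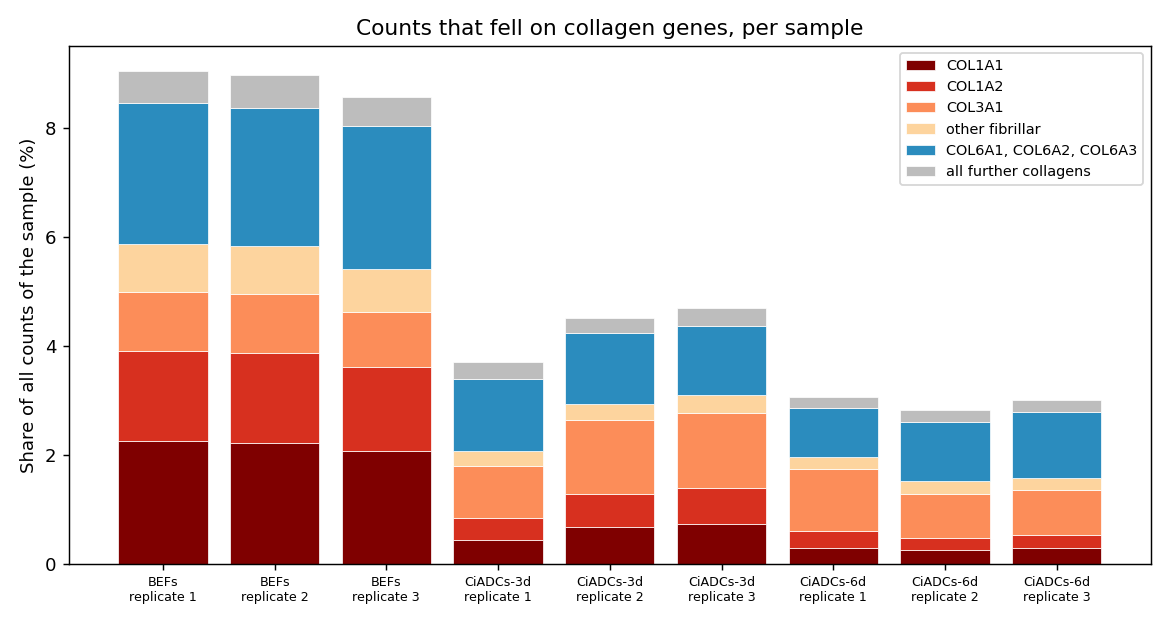
Percent of all counts of each sample that fell on collagen genes, in 9 stacked bars, 1 per sample, split by gene or gene group. The bars of the 3 BEFs samples reach 8.56% to 9.06%, those of CiADCs-3d 3.70% to 4.70% and those of CiADCs-6d 2.83% to 3.07%, and the COL1A1 and COL1A2 segments are smaller in all CiADCs than in all BEFs samples, which the COL3A1 segment is not.

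The leading collagen gene differed between the groups. By mean FPKM, COL1A1 led in BEFs with 4528 ± 207 FPKM, followed by COL1A2 with 3478 ± 139, COL6A1 with 2538 ± 44.5, COL6A2 with 2126 ± 56.6 and COL3A1 with 1958 ± 76.5, and no 2 neighbours in this order overlapped. The next pair, COL5A2 and COL6A3, did overlap in BEFs. In CiADCs-3d the order was COL3A1 with 2283 ± 445 FPKM, COL6A1 with 1746 ± 52.9, COL1A1 with 1275 ± 313, COL1A2 with 1188 ± 294 and COL6A2 with 1107 ± 55.8. There, COL6A1 stood clear of COL1A1, and each other pair of neighbours overlapped. In CiADCs-6d it was COL3A1 with 1703 ± 337 FPKM, COL6A1 with 1484 ± 206, COL6A2 with 927 ± 152, COL1A1 with 582 ± 37.9 and COL1A2 with 552 ± 109, with overlap between COL3A1 and COL6A1 and between COL1A1 and COL1A2. Among all 21512 genes ranked by mean FPKM, COL1A1 was at place 3 on day 0, 41 on day 3 and 130 on day 6, while COL3A1 was at places 22, 15 and 24. The 3 genes taken as markers of this family, COL1A1, COL3A1 and COL4A1, were thus expressed in all groups, with COL4A1 far below at 32.3 ± 2.52, 16.4 ± 2.41 and 15.3 ± 2.11 FPKM on days 0, 3 and 6.

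The members did not move as a block. Of the 45 genes, 36 passed the filter on low counts and 9 did not. In CiADCs-3d against BEFs, 12 of the 36 were higher and 9 lower, that is 33.3% and 25%, whereas 18.2% and 9.94% of all 14020 tested genes were higher and lower. For CiADCs-6d the calls were 12 higher and 15 lower, that is 33.3% and 41.7%, against 21.9% and 13.4% of all tested genes. By adjusted p alone, 13 members were higher and 17 lower on day 3, where 30.9% and 29.1% of all tested genes were, and 14 were higher and 16 lower on day 6, where 35.6% and 31.9% were. The median log2 fold change of the 36 was -0.25 in CiADCs-3d and -0.18 in CiADCs-6d, with 0.006 and 0.033 over all tested genes. The genes in the opposite directions differed in level. All members called lower had a mean of at least 10 CPM in some group, while 7 of the 12 called higher on each day did not. Of the tested members, 8 were under the cutoff of the filter in at least 1 BEFs sample and passed because of counts in other samples. Of these 8, 7 were called higher on each day, so that the filter in part sets the number of higher calls. They were COL11A2, COL6A6, COL9A2, COL9A3, COL20A1, COL21A1 and COL25A1. Of the 28 members over the cutoff in all 3 BEFs samples, 5 were higher and 9 lower on day 3, and 5 were higher and 15 lower on day 6. Against the 18.2% and 21.9% of all tested genes that were higher, the higher calls of these 28 were no more frequent. Their lower calls were more frequent than the 9.94% and 13.4% over all tested genes. The shares among all genes over that cutoff in BEFs were not computed. Since both comparisons share the BEFs samples, their counts are not independent of each other.

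**Figure D2:**
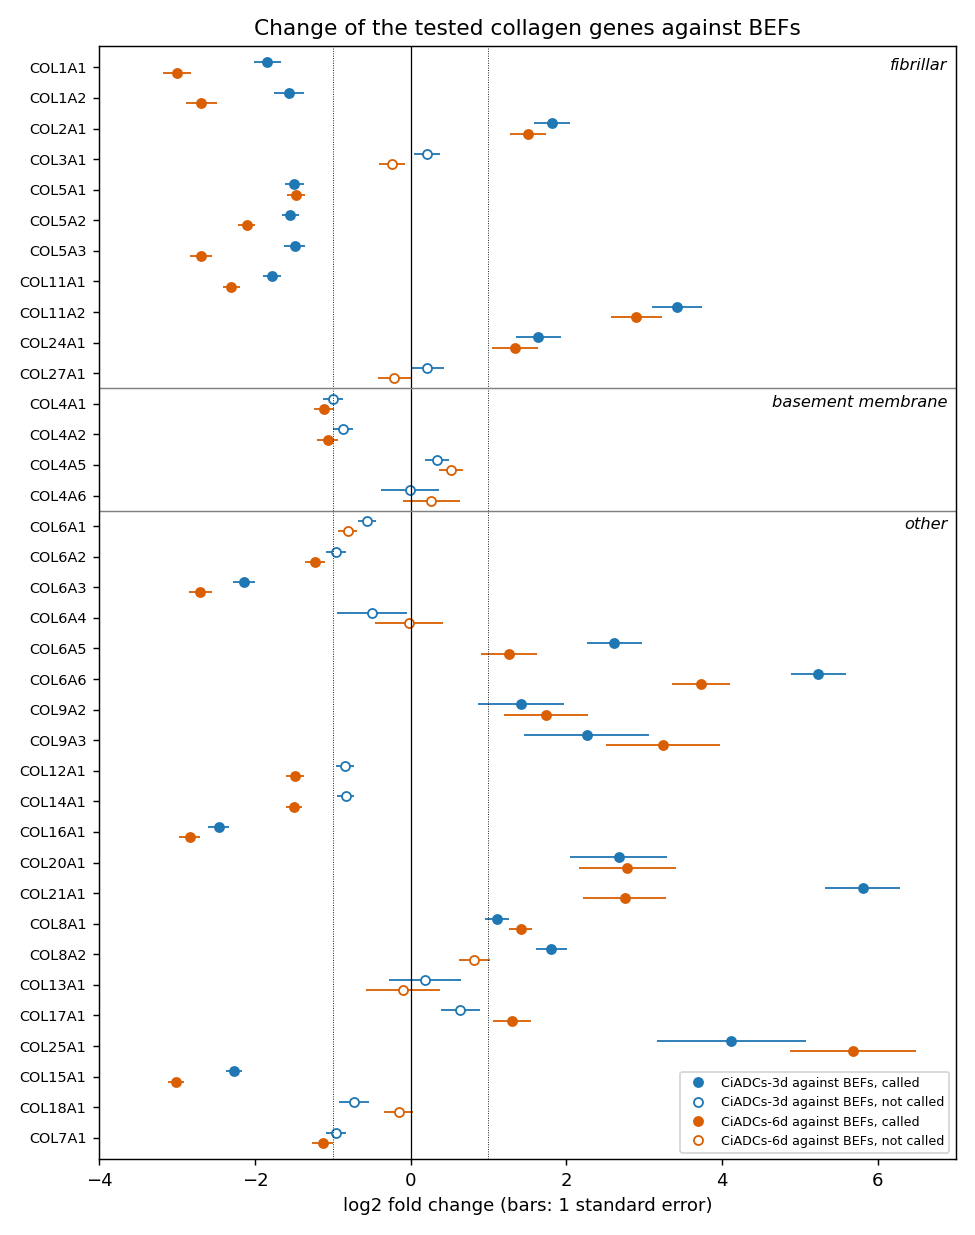
The log2 fold change against BEFs (horizontal axis, bars of 1 standard error) of the 36 tested collagen genes, in rows by class, for CiADCs-3d (blue) and CiADCs-6d (orange), with filled points for called genes, open points for the others and dotted lines at a log2 fold change of -1 and 1. COL1A1 is at -1.84 and -3.0 on days 3 and 6 and COL21A1 at 5.81 and 2.75, and COL3A1 at 0.21 and -0.24.

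Among fibrillar collagens, the chains of collagens I and V and the alpha 1 chain of collagen XI fell, collagen III did not pass the test, and 3 chains present at low levels rose. On each day 3 of the 11 were higher and 6 lower, that is 27.3% and 54.5%. Over all tested genes, 18.2% were higher and 9.94% lower on day 3, and 21.9% and 13.4% on day 6. COL11A2, among the 3 higher ones, was under the cutoff of the filter in at least 1 BEFs sample. COL1A1 (ncbi_282187), the chain that forms most of the collagen I trimer, had 23009, 22298 and 21106 CPM in BEFs, 4366, 6741 and 7443 CPM in CiADCs-3d, and 2872, 2526 and 2922 CPM in CiADCs-6d. Every CiADCs sample was below every BEFs sample, and every CiADCs-6d sample was below every CiADCs-3d sample. The log2 fold change was -1.84 (SE 0.17, adjusted p = 1.9e-06) in CiADCs-3d and -3.0 (SE 0.18, adjusted p = 2.97e-08) in CiADCs-6d, a level 3.58-fold and 7.98-fold lower than in BEFs. COL1A2 (ncbi_282188), its partner chain, had 16712, 16531 and 15635 CPM in BEFs, 3869, 6163 and 6484 CPM in CiADCs-3d, and 3073, 2113 and 2378 CPM in CiADCs-6d. Its groups did not overlap either, and CiADCs-3d replicate 1 was the lowest of its group for both chains. COL1A2 fell by 1.57 on the log2 scale in CiADCs-3d (SE 0.19, adjusted p = 1.87e-05) and by 2.69 in CiADCs-6d (SE 0.20, adjusted p = 1.76e-07).

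COL3A1 (ncbi_510833), the only chain of collagen III, which is laid down together with collagen I in skin, had 11049, 10865 and 10326 CPM in BEFs, 9429, 13803 and 13935 CPM in CiADCs-3d, and 11150, 7874 and 8312 CPM in CiADCs-6d. The 3 groups overlapped, with the lowest and the highest value on day 3 both outside the range of BEFs. The log2 fold change was 0.21 (SE 0.17, adjusted p = 0.306) in CiADCs-3d and -0.24 (SE 0.17, adjusted p = 0.225) in CiADCs-6d, which is not a call on either day. Under the alternatives tried, the value in CiADCs-6d ran between -0.43 and -0.15 and did not change sign. Without both CiADCs samples numbered 1 the adjusted p passed the threshold, at 0.39 (adjusted p = 0.00462) in CiADCs-3d and -0.43 (adjusted p = 0.00227) in CiADCs-6d, with the fold change still under the minimum. By FPKM, the ratio of COL3A1 to COL1A1, computed after their values were seen and given with no test, was 0.428, 0.434 and 0.435 on day 0 (BEFs), 1.92, 1.83 and 1.68 on day 3 and 3.45, 2.78 and 2.53 on day 6. The ratio was below 1 in all BEFs samples and above 1 in all CiADCs samples.

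Collagen V limits the width of fibrils that collagen I forms. COL5A1 (ncbi_100848491) had 1584, 1589.6 and 1472 CPM in BEFs, 475, 545 and 631 CPM in CiADCs-3d, and 506, 600.4 and 565 CPM in CiADCs-6d, and the CiADCs of both days overlapped well below the BEFs. It fell by 1.49 on the log2 scale in CiADCs-3d (SE 0.12, adjusted p = 4.76e-07) and by 1.47 in CiADCs-6d (SE 0.12, adjusted p = 4.1e-07). COL5A2 (ncbi_538590) had 5627, 5622 and 5096 CPM in BEFs, 1719, 1784 and 2105 CPM in CiADCs-3d, and 1299, 1249 and 1244 CPM in CiADCs-6d. Its 3 groups were apart, and its log2 fold change was -1.54 (SE 0.11, adjusted p = 1.38e-07) in CiADCs-3d and -2.11 (SE 0.11, adjusted p = 8.74e-09) in CiADCs-6d. COL5A3 (ncbi_507881), a rarer chain of collagen V, had 130.4, 134 and 123 CPM in BEFs, 54.7, 39.0 and 44.5 CPM in CiADCs-3d, and 17.1, 21.6 and 21.3 CPM in CiADCs-6d, also without overlap. Its log2 fold change was -1.49 (SE 0.13, adjusted p = 1.29e-06) in CiADCs-3d and -2.69 (SE 0.14, adjusted p = 9.08e-09) in CiADCs-6d.

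COL11A1 (ncbi_287013), a chain of collagen XI that takes the place of collagen V in cartilage fibrils, had 1502, 1533 and 1337 CPM in BEFs, 384, 412 and 477 CPM in CiADCs-3d, and 276, 309.5 and 302 CPM in CiADCs-6d. The groups were apart, with a log2 fold change of -1.78 (SE 0.11, adjusted p = 5.38e-08) in CiADCs-3d and -2.30 (SE 0.11, adjusted p = 5.51e-09) in CiADCs-6d. In the opposite direction, COL2A1 (ncbi_407142), the chain of the main cartilage collagen, had 6.34, 5.67 and 3.73 CPM in BEFs, 19.9, 17.2 and 18.5 CPM in CiADCs-3d, and 10.2, 18.1 and 16.4 CPM in CiADCs-6d. All CiADCs samples were above all BEFs samples, and the days overlapped. COL2A1 rose 3.54-fold in CiADCs-3d (adjusted p = 2.64e-05) and 2.84-fold in CiADCs-6d (adjusted p = 9.96e-05). COL11A2, another chain of collagen XI, was under the filter cutoff in at least 1 BEFs sample, so its direction was in part set by the filter. It rose on both days, with 8, 11 and 14 counts in BEFs, 67, 139 and 128 counts in CiADCs-3d and 92, 80 and 56 counts in CiADCs-6d. Its log2 fold change was 3.42 (SE 0.32, adjusted p = 2.1e-06) on day 3 and 2.90 (SE 0.33, adjusted p = 7.73e-06) on day 6. COL24A1, a minor fibrillar chain, rose likewise, to 3.15 ± 0.221 CPM in CiADCs-3d and 2.56 ± 0.165 CPM in CiADCs-6d, against 1.01 ± 0.418 CPM in BEFs. COL27A1 (ncbi_513668), a fibrillar collagen of cartilage, had 58.5, 58.1 and 90.8 CPM in BEFs, 55.6, 97.1 and 87.9 CPM in CiADCs-3d, and 53.2, 62.9 and 63.5 CPM in CiADCs-6d. Its groups overlapped and it was not called on either day.

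Cartilage is present in the ear, so chondrocyte markers were read beside these genes. Of 9 tested of 11 markers, 2 were higher and 1 lower on day 3, and 3 were higher and 2 lower on day 6. Of all tested genes, 18.2% were higher and 9.94% lower on day 3, and 21.9% and 13.4% on day 6. The summed level of the 11 markers ran over 395 to 403 CPM in BEFs, 112 to 122 CPM in CiADCs-3d and 98.3 to 114 CPM in CiADCs-6d. ACAN, the core protein of the cartilage proteoglycan, made up most of the sum in BEFs and was lower, with log2 fold changes of -3.06 and -3.50 on days 3 and 6 (adjusted p = 1.3e-08 and 4.05e-09). MATN3 and CHAD, cartilage matrix proteins, were also called higher on day 3 (log2 fold change 5.31 for MATN3 and 1.03 for CHAD) and on day 6 (4.77 for MATN3 and 1.18 for CHAD). On day 6, SOX5 was also higher (1.09) and SOX6 lower (-1.28). SOX9, the regulator that defines chondrocytes, was at 13.2 ± 1.55 CPM in BEFs, 8.86 ± 0.660 CPM in CiADCs-3d and 8.80 ± 0.742 CPM in CiADCs-6d and was not called, and EPYC was at 0 counts in all samples. The part of these cells in the values of COL2A1, COL11A1 and COL11A2 was not tested.

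**Figure D3:**
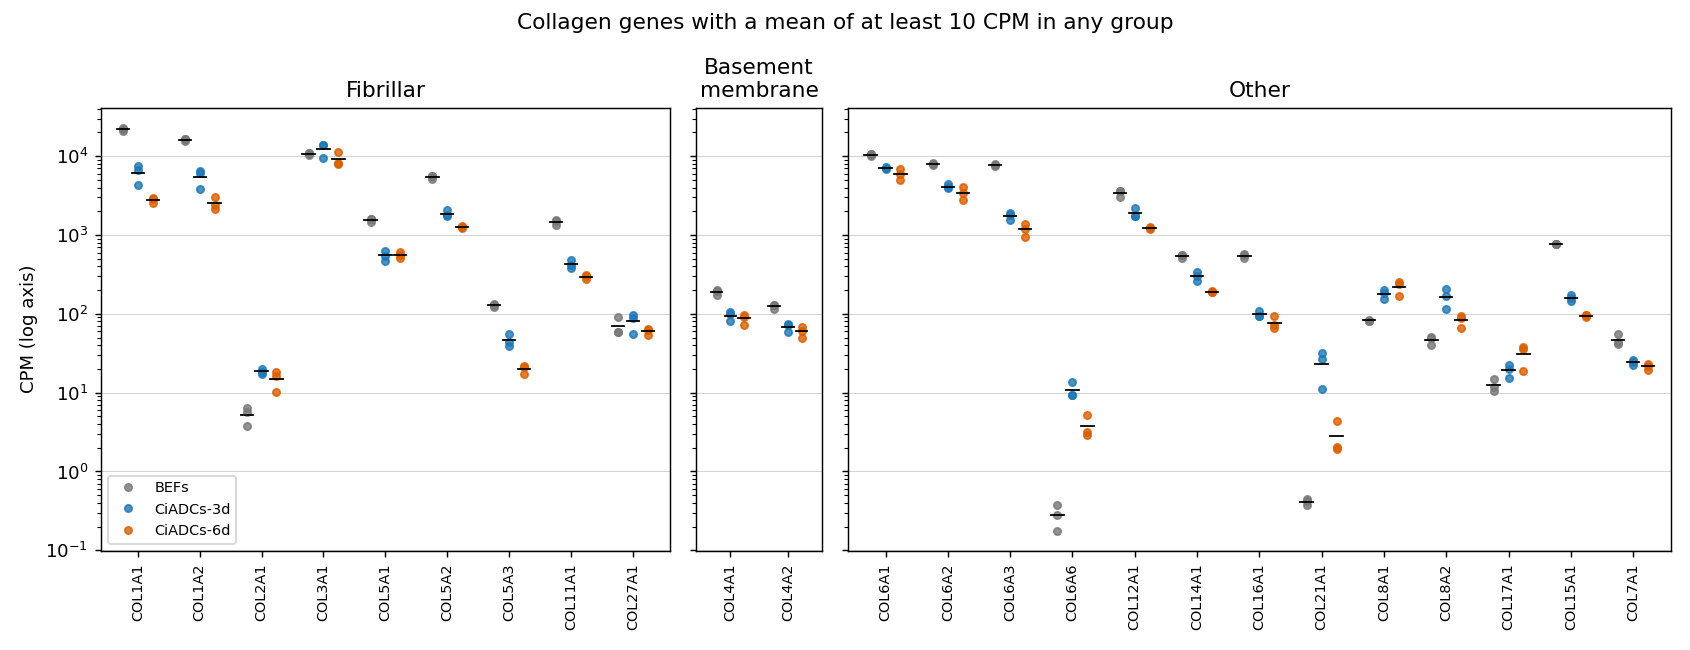
CPM (log axis) of the 24 tested collagen genes with a mean of at least 10 CPM in any group, in panels by class, with 1 point per sample, BEFs in grey, CiADCs-3d in blue and CiADCs-6d in orange, and a line at the group mean. COL1A1 drops below COL3A1 in CiADCs, and COL6A6 and COL21A1 are under 1 CPM in all BEFs samples and highest on day 3.

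Of the basement membrane collagens, the chains of the common network fell on day 6, and the other chains were low or near absent. COL4A1 (ncbi_282191) had 201, 192 and 173 CPM in BEFs, 105, 80.3 and 99.0 CPM in CiADCs-3d, and 73.2, 92.3 and 96.9 CPM in CiADCs-6d. COL4A2 (ncbi_508632), which joins it in the trimer found in most basement membranes, had 131, 129 and 116 CPM in BEFs, 75.0, 59.3 and 71.2 CPM in CiADCs-3d, and 49.8, 68.4 and 61.3 CPM in CiADCs-6d. For both genes all CiADCs samples were below all BEFs samples, and the days overlapped. COL4A1 was 2.16-fold lower in CiADCs-6d, with a log2 fold change of -1.11 (SE 0.13, adjusted p = 1.19e-05). COL4A2 had a log2 fold change of -1.07 (SE 0.13, adjusted p = 1.43e-05) there. In CiADCs-3d the values were -0.99 (SE 0.13, adjusted p = 3.9e-05) for COL4A1 and -0.87 (SE 0.13, adjusted p = 9.68e-05) for COL4A2, short of the minimum fold change. These genes lie at that limit. Without CiADCs-6d replicate 1 the value of COL4A2 on day 6 was -0.98 and no longer a call, and COL4A1 was called on day 3 when replicate 3 of BEFs, or replicate 1 or 3 of CiADCs-3d, was left out, at -1.05, -1.05 and -1.03.

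COL4A5, a chain of the basement membranes of kidney and skin, was at 5.53 ± 0.297 CPM in BEFs, 6.99 ± 0.468 CPM in CiADCs-3d and 7.94 ± 0.709 CPM in CiADCs-6d and was not called, with an adjusted p of 0.00888 and a log2 fold change of 0.52 in CiADCs-6d. COL4A6, its partner in the basement membranes of skin and smooth muscle, was at 0.644 ± 0.114 CPM in BEFs, 0.644 ± 0.187 CPM in CiADCs-3d and 0.778 ± 0.117 CPM in CiADCs-6d. COL4A3 and COL4A4, chains of the glomerular basement membrane, did not pass the filter, with at most 2 and 3 counts in any sample. Endothelial cells and smooth muscle cells also make collagen IV. The summed level of the 8 endothelial markers ran over 12.6 to 18.7 CPM in BEFs, 313 to 463 CPM in CiADCs-3d and 198 to 322 CPM in CiADCs-6d, most of it VWF in CiADCs, while EMCN and in most samples CLDN5 had no count. Of 4 tested endothelial markers, 3 were called higher on day 3 and 2 on day 6. Of 5 tested of 6 smooth muscle and pericyte markers, 2 were called higher and 3 lower on each day. Of all tested genes, 18.2% were higher and 9.94% lower on day 3, and 21.9% and 13.4% on day 6. The 6 smooth muscle and pericyte markers summed to 286 to 316 CPM in BEFs, 77.6 to 165 CPM in CiADCs-3d and 33.2 to 70.9 CPM in CiADCs-6d. The part of these cells and of endothelial cells in the values of COL4A1 and COL4A2 was not tested.

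The long-studied chains of collagen VI differed in how far they were below BEFs. COL6A1 (ncbi_511422) had 10662, 10172 and 10567 CPM in BEFs, 7123, 7283 and 6908 CPM in CiADCs-3d, and 5063, 5982 and 6875 CPM in CiADCs-6d. The samples of the 3 groups did not overlap, yet its log2 fold change of -0.56 (SE 0.12, adjusted p = 0.00137) in CiADCs-3d and -0.81 (SE 0.12, adjusted p = 6.54e-05) in CiADCs-6d did not reach the minimum. COL6A2 (ncbi_282194) had 8034, 7737 and 8286 CPM in BEFs, 3934, 4390.2 and 4020.4 CPM in CiADCs-3d, and 2823, 3382 and 4038 CPM in CiADCs-6d. CiADCs lay below BEFs, with overlap between the days. COL6A2 fell by 1.23 on the log2 scale in CiADCs-6d (SE 0.13, adjusted p = 3.95e-06), and its value in CiADCs-3d, -0.96 (SE 0.13, adjusted p = 4.08e-05), was not a call. Without CiADCs-3d replicate 2 the day 3 value was -1.01 and was called. COL6A3 (ncbi_530657), the large chain that joins them, had 7650.1, 7498 and 7889.8 CPM in BEFs, 1888, 1536 and 1805 CPM in CiADCs-3d, and 950.1, 1204 and 1392 CPM in CiADCs-6d. Its groups were apart, and it fell by 2.14 on the log2 scale in CiADCs-3d (SE 0.14, adjusted p = 9.61e-08) and by 2.70 in CiADCs-6d (SE 0.15, adjusted p = 1.21e-08).

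Further genes encode chains that, as known from mice, can stand in for the COL6A3 chain. COL6A6 (ncbi_530102) had 0.280, 0.375 and 0.178 CPM in BEFs, 13.6, 9.32 and 9.45 CPM in CiADCs-3d, and 5.26, 2.93 and 3.14 CPM in CiADCs-6d. Each CiADCs sample was far above each BEFs sample, and day 6 was below day 3. COL6A6 had a log2 fold change of 5.24 (SE 0.35, adjusted p = 1.06e-07) in CiADCs-3d and 3.73 (SE 0.37, adjusted p = 2.46e-06) in CiADCs-6d, from 6, 9 and 4 counts in BEFs. It was under the cutoff of the filter in at least 1 BEFs sample, so its direction was in part set by the filter. COL6A5 had 20, 38 and 22 counts in BEFs, 105, 164 and 189 counts in CiADCs-3d and 96, 40 and 40 counts in CiADCs-6d. It rose by 2.62 on the log2 scale in CiADCs-3d (SE 0.35, adjusted p = 4.21e-05) and by 1.26 in CiADCs-6d (SE 0.36, adjusted p = 0.00835). The day 6 call rested on CiADCs-6d replicate 1, without which the value was 0.74 (adjusted p = 0.055). COL6A4, a symbol that RefSeq does not give this gene, was not called. It was at 2.2 ± 0.646 CPM in BEFs, 1.58 ± 0.943 CPM in CiADCs-3d and 2.18 ± 1.00 CPM in CiADCs-6d.

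Chains that share a trimer were compared by the ratio of their FPKM in each sample. The ratio of COL6A3 to COL6A1 was 0.304, 0.312 and 0.316 on day 0 (BEFs), 0.114, 0.0908 and 0.113 on day 3 and 0.0827, 0.0879 and 0.0886 on day 6. No sample of a group reached another group, and the mean log2 ratio differed from that of BEFs by -1.56 in CiADCs-3d and -1.85 in CiADCs-6d. The ratio of COL6A1 to COL6A2 was 1.19 ± 0.0248 on day 0 (BEFs), 1.58 ± 0.0704 on day 3 and 1.61 ± 0.0418 on day 6, with all CiADCs samples above all BEFs samples. For collagen I, the ratio of COL1A1 to COL1A2 was 1.3 ± 0.0150 on day 0 (BEFs), 1.07 ± 0.0276 on day 3 and 1.07 ± 0.154 on day 6, with all CiADCs samples below all BEFs samples. In CiADCs-6d replicate 1 it was 0.898, the only sample below 1. For collagen V, the ratio of COL5A1 to COL5A2 was 0.218 ± 0.00305, 0.226 ± 0.0119 and 0.339 ± 0.0359 on days 0, 3 and 6, and day 6 was above the others, which overlapped. The ratio of COL4A1 to COL4A2 was 1.61 ± 0.0275, 1.47 ± 0.0260 and 1.56 ± 0.123 on days 0, 3 and 6, with day 3 below BEFs and day 6 overlapping both. With 3 samples against 3, a two-sided exact permutation test cannot go below p = 0.1, so none of the 15 tests of the 5 ratios could pass. Each comparison whose samples did not overlap had this smallest p, 0.15 after Benjamini-Hochberg adjustment over the 15.

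**Figure D4:**
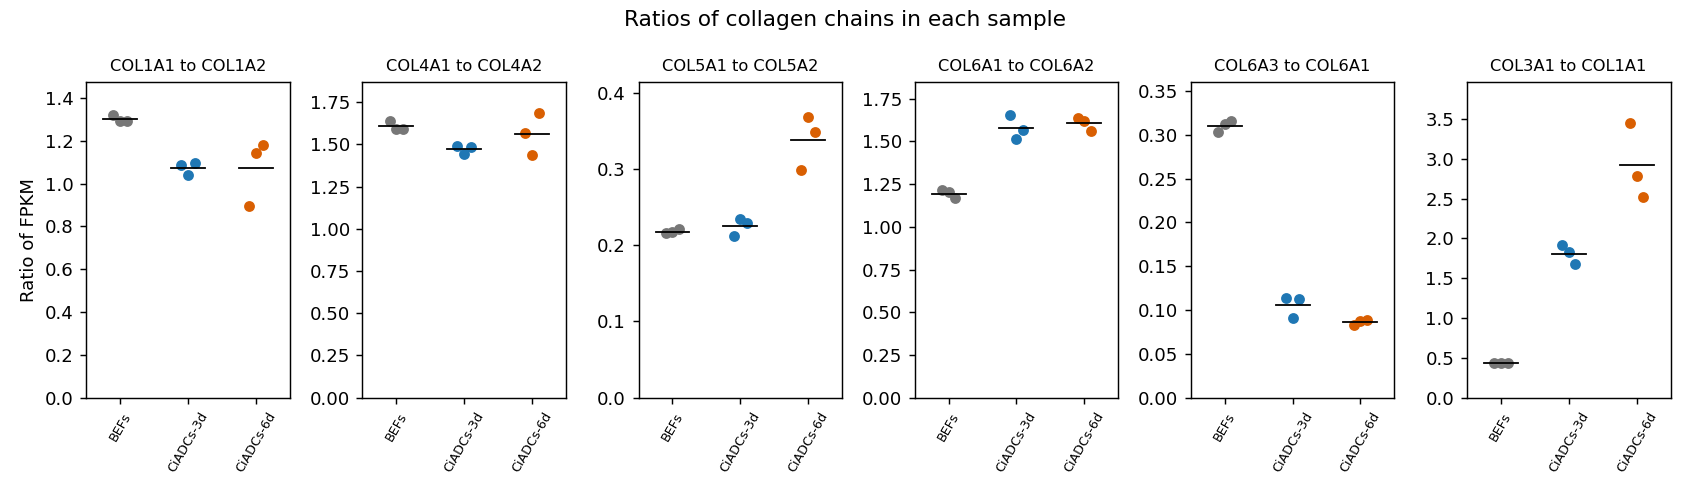
Ratio of the FPKM of a pair of collagen chains (vertical axes from 0, no unit) in each of the 9 samples, with 1 panel per pair, points for samples and a line at the group mean. The ratio of COL3A1 to COL1A1 has means of 0.433, 1.81 and 2.92 on days 0, 3 and 6, and that of COL6A3 to COL6A1 has means of 0.310, 0.106 and 0.0864.

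FACIT collagens sit on the surface of fibrils. Those well expressed in BEFs were lower on day 6. COL12A1 (ncbi_359712), found on collagen I fibrils, had 3598, 3608 and 3048 CPM in BEFs, 1765, 1764 and 2183 CPM in CiADCs-3d, and 1264, 1178 and 1224 CPM in CiADCs-6d. The groups were apart, with a log2 fold change of -1.48 (SE 0.12, adjusted p = 3.42e-07) in CiADCs-6d, a call, and -0.84 (SE 0.12, adjusted p = 5.15e-05) in CiADCs-3d, not a call. COL14A1 (ncbi_781493), a regulator of fibril growth, had 555, 555 and 515 CPM in BEFs, 342, 264 and 305 CPM in CiADCs-3d, and 188, 197 and 189.8 CPM in CiADCs-6d. It showed the same order, with -1.50 (SE 0.11, adjusted p = 1.43e-07) in CiADCs-6d, a call, and -0.84 (SE 0.11, adjusted p = 2.65e-05) in CiADCs-3d, not a call. COL16A1 (ncbi_507010), a collagen of skin and cartilage, had 573, 558 and 515 CPM in BEFs, 95.2, 93.8 and 109 CPM in CiADCs-3d, and 92.7, 66.5 and 71.3 CPM in CiADCs-6d. It fell by 2.47 on the log2 scale in CiADCs-3d (SE 0.13, adjusted p = 1.5e-08) and by 2.84 in CiADCs-6d (SE 0.14, adjusted p = 4.13e-09).

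COL21A1 (ncbi_533456), a FACIT collagen of blood vessel walls, had 0.419, 0.375 and 0.444 CPM in BEFs, 11.3, 26.8 and 31.9 CPM in CiADCs-3d, and 4.38, 2.06 and 1.95 CPM in CiADCs-6d. Day 3 stood above both other groups, and CiADCs-3d replicate 1 was the lowest of day 3 while CiADCs-6d replicate 1 was the highest of day 6. The rise was the largest of the tested members in CiADCs-3d, with a log2 fold change of 5.81 (SE 0.48, adjusted p = 6.96e-07), and in CiADCs-6d it was 2.75 (SE 0.53, adjusted p = 0.000611). The scarcer genes COL20A1, COL9A2 and COL9A3 were called higher on both days. These 3 and COL21A1 were under the cutoff of the filter in at least 1 BEFs sample and were tested because of counts in other samples, so their direction was in part set by the filter. COL20A1 had 3, 0 and 9 counts in BEFs, 15, 25 and 34 counts in CiADCs-3d and 27, 28 and 23 counts in CiADCs-6d, COL9A2 had 6, 10 and 17 counts in BEFs, 46, 12 and 22 counts in CiADCs-3d and 44, 35 and 23 counts in CiADCs-6d, and COL9A3 had 3, 0 and 2 counts in BEFs, 5, 6 and 13 counts in CiADCs-3d and 8, 21 and 17 counts in CiADCs-6d. COL20A1 had a log2 fold change of 2.67 (SE 0.63, adjusted p = 0.00288) on day 3 and 2.79 (SE 0.62, adjusted p = 0.00172) on day 6, and without BEFs replicate 3, which holds most of its BEFs counts, 4.01 and 4.12. Without BEFs replicate 2, which has no count, they were 2.07 and 2.17. COL9A2, a chain of the cartilage collagen IX, had 1.42 (SE 0.55, adjusted p = 0.0415) on day 3 and 1.74 (SE 0.54, adjusted p = 0.0126) on day 6. Its day 3 call rested on CiADCs-3d replicate 1, without which the value was 0.67 (adjusted p = 0.265), and was also lost without replicate 1 or 2 of BEFs or replicate 2 or 3 of CiADCs-6d (adjusted p between 0.0504 and 0.133). Its counts on day 3 overlapped those of BEFs, and its day 6 call was lost without BEFs replicate 1 (adjusted p = 0.0524). COL9A3, its partner, had 2.26 (SE 0.80, adjusted p = 0.0279) on day 3 and 3.24 (SE 0.73, adjusted p = 0.00183) on day 6, and the day 3 call was lost without BEFs replicate 2, BEFs replicate 3 or CiADCs-3d replicate 3 (adjusted p = 0.0914, 0.0595 and 0.116). Without BEFs replicate 1 its values were 2.96 and 3.93, and without BEFs replicate 2 its day 6 value was 2.64.

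Both tested chains of the hexagonal networks of collagen VIII, made by endothelial and smooth muscle cells and by fibroblasts, were higher in CiADCs-3d. COL8A1 (ncbi_538564) had 81.0, 81.9 and 84.6 CPM in BEFs, 198, 154 and 182 CPM in CiADCs-3d, and 166, 252 and 241 CPM in CiADCs-6d. All CiADCs samples were above all BEFs samples, and the days overlapped. It rose 2.16-fold in CiADCs-3d (adjusted p = 4.64e-05) and 2.66-fold in CiADCs-6d (adjusted p = 4.7e-06). COL8A2 (ncbi_539415) had 49.6, 50.8 and 40.1 CPM in BEFs, 208, 116 and 169 CPM in CiADCs-3d, and 65.8, 89.7 and 92.7 CPM in CiADCs-6d. Its 3 groups were apart, with day 6 between BEFs and day 3. COL8A2 had a log2 fold change of 1.81 (SE 0.20, adjusted p = 8.51e-06) in CiADCs-3d, and of 0.82 (SE 0.20, adjusted p = 0.00279) in CiADCs-6d, which is not a call. The endothelial markers, most of whose sum in CiADCs was VWF, summed to more in all CiADCs than in all BEFs samples, and their part in this was not tested.

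Of the collagens that span the cell membrane, COL17A1 (ncbi_513804), which links basal keratinocytes to the basement membrane, had 11.7, 10.5 and 15 CPM in BEFs, 22.6, 15.2 and 20.1 CPM in CiADCs-3d, and 18.9, 35.6 and 37.6 CPM in CiADCs-6d. All CiADCs samples were above all BEFs samples. It rose 2.47-fold in CiADCs-6d with a log2 fold change of 1.3 (SE 0.24, adjusted p = 0.000475), and its value in CiADCs-3d was 0.64 (SE 0.25, adjusted p = 0.0391), not a call. COL25A1, a collagen of neurons and developing muscle, had 0, 1 and 0 counts in BEFs, 8, 7 and 7 counts in CiADCs-3d and 12, 34 and 19 counts in CiADCs-6d. It was called higher on both days, on a single count in BEFs. COL25A1 was tested because of counts in other samples, so its direction was in part set by the filter. The ratio of summed counts over library size was 23.8 (95% counting interval 3.84 to 981) in CiADCs-3d and 71.2 (12.3 to 2856) in CiADCs-6d. These intervals cover counting error only and leave out the spread between the samples of a group. The fitted log2 fold change, 4.12 and 5.68, depends on the single count in BEFs, being 5.92 and 7.47 without BEFs replicate 2. COL13A1, a collagen of cell contacts, was at 0.490 ± 0.253 CPM in BEFs, 0.554 ± 0.0366 CPM in CiADCs-3d and 0.459 ± 0.138 CPM in CiADCs-6d and was not called. COL7A1 (ncbi_507133), whose chains form the anchoring fibrils beneath the epidermis, had 43.8, 41.7 and 56.2 CPM in BEFs, 24.6, 22.4 and 25.8 CPM in CiADCs-3d, and 19.5, 22.1 and 23.2 CPM in CiADCs-6d. CiADCs lay below BEFs and the days overlapped. COL7A1 was lower in CiADCs-6d, with a log2 fold change of -1.13 (SE 0.13, adjusted p = 1.04e-05), and had -0.96 (SE 0.13, adjusted p = 5.09e-05) in CiADCs-3d. Like COL4A1 it lay at the limit of the fold change, with -0.99 and no call on day 6 without BEFs replicate 3, and a call on day 3 without BEFs replicate 1, BEFs replicate 2 or CiADCs-3d replicate 3 (-1.02, -1.05 and -1.01). Of 5 tested of 7 keratinocyte markers, 2 were called higher and 1 lower on day 3 and 2 higher on day 6. Of all tested genes, 18.2% were higher and 9.94% lower on day 3, and 21.9% and 13.4% on day 6. The 7 keratinocyte markers summed to 27.7 to 51.4 CPM in BEFs, 26.5 to 36.6 CPM in CiADCs-3d and 44.4 to 54.1 CPM in CiADCs-6d. Their part in COL17A1 and COL7A1 was not tested.

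The multiplexins, collagens XV and XVIII, lie in or next to basement membranes and carry the precursors of the angiogenesis inhibitors restin and endostatin. COL15A1 (ncbi_100139730) had 769, 778 and 759.9 CPM in BEFs, 174, 147 and 159 CPM in CiADCs-3d, and 96.7, 98.0 and 90.5 CPM in CiADCs-6d. The groups were far apart with little spread within each. COL15A1 fell by 2.27 on the log2 scale in CiADCs-3d (SE 0.098, adjusted p = 2.21e-09) and by 3.02 in CiADCs-6d (SE 0.10, adjusted p = 2.58e-10), where it was 8.09-fold lower than in BEFs. COL18A1 was at 7.26 ± 1.03 CPM in BEFs, 4.39 ± 0.707 CPM in CiADCs-3d and 6.54 ± 0.773 CPM in CiADCs-6d. It was not called, with a log2 fold change of -0.73 (SE 0.19, adjusted p = 0.00547) in CiADCs-3d and -0.15 (SE 0.18, adjusted p = 0.482) in CiADCs-6d.

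The 9 members that did not pass the filter are accounted for by their counts. COL22A1 had no count in any sample, which allows at most 0.125 to 0.162 CPM in a sample (3 counts of each library). COL4A3, COL28A1, COL10A1, COL23A1, COL4A4, COL26A1, COL9A1 and COL19A1 had totals of 2, 4, 7, 11, 12, 13, 21 and 30 counts over the 9 samples. COL19A1, a FACIT collagen, had 1, 1 and 0 counts in BEFs, 1, 3 and 2 counts in CiADCs-3d and 6, 6 and 10 counts in CiADCs-6d. COL9A1, the third chain of collagen IX, had 0, 0 and 0 counts in BEFs, 4, 4 and 1 counts in CiADCs-3d and 4, 2 and 6 counts in CiADCs-6d. COL26A1 had 4, 2 and 4 counts in BEFs, 0, 0 and 1 counts in CiADCs-3d and 2, 0 and 0 counts in CiADCs-6d, the only one of these 9 genes whose counts in BEFs exceeded those of both days together. At these depths no difference was tested. Outside the rule, the table holds 11 loci described as collagen-like, of which 4 passed the filter. The largest, an assembled locus described as collagen alpha-1(I) chain-like, had at most 2360 counts in a sample, where COL1A1 had at least 53975. Reads of near-identical sequence could have been split between such loci and the members.

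Between the days, fewer collagen genes were called than against BEFs, and most of the calls were lower. In CiADCs-6d against CiADCs-3d, 1 of the 36 tested members was higher and 6 were lower, that is 2.78% and 16.7%, against 4.09% and 3.22% of all tested genes. By adjusted p alone, 2 of the 36 were higher and 14 of the 36 lower, where 14.4% and 13.6% of all tested genes were. The median log2 fold change was -0.31, against 0.0059 over all tested genes. Collagen I fell further, with a log2 fold change of -1.16 (SE 0.17, adjusted p = 0.000791) for COL1A1 and -1.13 (SE 0.19, adjusted p = 0.00156) for COL1A2. COL5A3 fell by 1.20 on the log2 scale (SE 0.14, adjusted p = 0.000184). COL21A1, COL6A6 and COL6A5, which had risen on day 3, were lower on day 6 than on day 3. COL21A1 had a log2 fold change of -3.05 (SE 0.38, adjusted p = 0.000322), COL6A6 of -1.51 (SE 0.26, adjusted p = 0.00176) and COL6A5 of -1.35 (SE 0.32, adjusted p = 0.00982). COL3A1 had -0.44 (SE 0.17, adjusted p = 0.0664), which did not pass. COL25A1 was the member called higher, at 1.56 (SE 0.50, adjusted p = 0.0356), on 12, 34 and 19 counts in CiADCs-6d and 8, 7 and 7 in CiADCs-3d, and this call was lost under 12 alternatives, among them the leaving out of replicate 1 or 2 of BEFs, replicate 2 or 3 of CiADCs-3d, or replicate 2 or 3 of CiADCs-6d (adjusted p between 0.0502 and 0.167). Without both CiADCs samples numbered 1 the log2 fold change was -3.92 for COL21A1, -2.05 for COL6A5, -1.68 for COL6A6, -1.43 for COL1A1 and -1.54 for COL1A2, all further from 0, and -1.01 for COL5A3, nearer to 0. COL3A1 then had -0.83 (adjusted p = 5.79e-05), past the threshold on p but not the minimum fold change. The call of COL6A5 was lost without CiADCs-6d replicate 3 (adjusted p = 0.0516). COL8A2 had -0.99 (SE 0.20, adjusted p = 0.00387), just short of a call, and was called lower without replicate 2 of CiADCs-3d or replicate 2 or 3 of CiADCs-6d (-1.20, -1.08 and -1.11).

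Several members lie next to each other in the RefSeq gene order, and neighbours did not always share a direction. COL4A1 and COL4A2, transcribed away from each other from a shared promoter region, had log2 fold changes of -1.11 and -1.07 in CiADCs-6d. COL5A2 and COL3A1 are also neighbours, and COL5A2 fell by 2.11 there, while COL3A1 had -0.24 and was not called. COL6A6, COL6A5 and COL6A4 follow each other, with 5.24 for COL6A6 and 2.62 for COL6A5 in CiADCs-3d and no call for COL6A4. RefSeq gives the last of these a locus name, so its identity as COL6A4 rests on the deposited symbol. COL6A1 and COL6A2, another adjacent pair, had -0.81 and -1.23 in CiADCs-6d.

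Procollagen chains are modified and folded in the endoplasmic reticulum, exported, trimmed by propeptide cleavage, crosslinked outside the cell, bound by receptors and broken down. Of 67 listed genes for these steps, 62 were tested. In CiADCs-3d against BEFs 9 were higher and 13 lower, and in CiADCs-6d 9 were higher and 14 lower. The shares over all tested genes were 18.2% higher and 9.94% lower on day 3, and 21.9% and 13.4% on day 6. Thus the higher calls of the 62 were less frequent than over all tested genes, and the lower calls more frequent. In modification and folding, 2 of 22 were higher and 5 lower on each day. SERPINH1 (ncbi_510850), the collagen chaperone, was at 2266 ± 45.7 CPM in BEFs, 869 ± 35.6 CPM in CiADCs-3d and 792 ± 107 CPM in CiADCs-6d, and was lower, with log2 fold changes of -1.38 and -1.52 on days 3 and 6 (adjusted p = 5.14e-07 and 1.82e-07). P4HA2, a catalytic subunit of prolyl 4-hydroxylase, was at 715 ± 9.0 CPM in BEFs, 186 ± 16.5 CPM in CiADCs-3d and 214 ± 25.9 CPM in CiADCs-6d, with log2 fold changes of -1.94 and -1.74 (adjusted p = 2.82e-08 and 5.57e-08). P4HA1, the other main catalytic subunit, was lower in CiADCs-3d, at -1.78 (SE 0.21, adjusted p = 1.17e-05), and was not called in CiADCs-6d, at -0.999 (SE 0.20, adjusted p = 0.000778). P4HB, the partner subunit, had -0.74 and -0.98 and was not called. PLOD2, a lysyl hydroxylase that sets the kind of crosslink, was lower, with log2 fold changes of -1.49 and -1.57 (adjusted p = 1.69e-05 and 8.31e-06). In the opposite direction, P3H2, a prolyl 3-hydroxylase, rose by 1.15 and 1.91 (adjusted p = 3.61e-06 and 3.45e-08). The other higher gene was COLGALT2, a collagen galactosyltransferase, which is outside the naming rule and was at 0.0753 ± 0.0559 CPM in BEFs, 3.42 ± 1.76 CPM in CiADCs-3d and 5.15 ± 1.64 CPM in CiADCs-6d. The other lower genes, named after their values were seen, were CRTAP on both days (-1.12 and -1.03) and FKBP10 on day 6 (-1.05), which both aid folding. The 12 genes of secretion had log2 fold changes between -0.53 and 0.53 on day 3 and between -0.74 and 0.68 on day 6. By adjusted p alone, 1 was higher and 5 lower on day 3, and 3 were higher and 3 lower on day 6, where 30.9% and 29.1% of all tested genes were on day 3 and 35.6% and 31.9% on day 6.

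Of the 7 tested genes of propeptide cleavage, 2 were higher and 1 lower on each day. Beside these calls and those for crosslinking, 18.2% of all tested genes were higher and 9.94% lower on day 3, and 21.9% and 13.4% on day 6. BMP1 (ncbi_510360), the main proteinase that removes the C-terminal propeptide, was at 353 ± 7.20 CPM in BEFs, 919 ± 38.3 CPM in CiADCs-3d and 1034 ± 81.0 CPM in CiADCs-6d and rose by 1.38 and 1.55 on the log2 scale on days 3 and 6 (adjusted p = 1.26e-07 and 3.69e-08). ADAMTS14, which removes the N-terminal propeptide, rose by 1.64 and 2.18 (adjusted p = 0.000674 and 5.53e-05). TLL2, a relative of BMP1 outside the naming rule, was the lower gene (-2.41 and -1.87). Of the 5 crosslinking enzymes, 1 was higher and 2 lower on each day. LOX (ncbi_280841), the lysyl oxidase that starts crosslinking, was at 1035 ± 67.8 CPM in BEFs, 383 ± 72.3 CPM in CiADCs-3d and 399 ± 65.4 CPM in CiADCs-6d, with log2 fold changes of -1.43 and -1.38 (adjusted p = 6.03e-06 and 6.47e-06). LOXL1, a relative, had -1.20 and -1.48 (adjusted p = 4.07e-05 and 5.46e-06), and LOXL4 rose by 1.74 and 1.36 (adjusted p = 5.15e-08 and 3.22e-07).

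Of the 8 tested collagen receptors, 1 was higher and 2 lower on day 3, and 1 was higher and 1 lower on day 6. Beside these calls and those for breakdown, 18.2% of all tested genes were higher and 9.94% lower on day 3, and 21.9% and 13.4% on day 6. ITGA11 (ncbi_523755), the alpha chain of an integrin that binds fibrillar collagen on fibroblasts, was at 96.2 ± 3.06 CPM in BEFs, 6.48 ± 1.89 CPM in CiADCs-3d and 2.66 ± 0.320 CPM in CiADCs-6d. It was lower, with log2 fold changes of -3.88 and -5.18 on days 3 and 6 (adjusted p = 3.06e-09 and 5.83e-10). DDR2 (ncbi_533523), a receptor kinase for fibrillar collagen, was higher in CiADCs-3d, at 1.35 (SE 0.13, adjusted p = 2.32e-06), and had 0.70 (SE 0.13, adjusted p = 0.000377) in CiADCs-6d, not a call. The other calls, named after their values were seen, were of integrin alpha chains, with ITGA10 lower in CiADCs-3d (-1.69) and ITGA2 higher in CiADCs-6d (1.51). Of the 8 tested genes of collagen breakdown, 3 were higher and 3 lower on day 3, and 3 were higher and 5 lower on day 6. MMP1 (ncbi_281308), the interstitial collagenase, was at 2.1 ± 0.218 CPM in BEFs, 10.2 ± 5.68 CPM in CiADCs-3d and 49.3 ± 2.1 CPM in CiADCs-6d and rose by 2.26 and 4.55 on the log2 scale (adjusted p = 6.56e-05 and 1.19e-07). MMP2 (ncbi_282872), a gelatinase, was at 1834 ± 71.6 CPM in BEFs, 3743 ± 258 CPM in CiADCs-3d and 6206 ± 799 CPM in CiADCs-6d and rose by 1.03 and 1.76 (adjusted p = 8.81e-06 and 7.3e-08). MMP14, the membrane proteinase that activates it, was lower in CiADCs-6d, at -1.19 (SE 0.13, adjusted p = 6.04e-06), and had -0.93 in CiADCs-3d, not a call. FAP, a gelatinase of activated fibroblasts, was lower, with log2 fold changes of -1.84 and -3.53 (adjusted p = 5.91e-06 and 3.53e-08), as was CTSK, a lysosomal collagenase, with -1.39 and -1.52 (adjusted p = 6.58e-07 and 2.49e-07). CTSL (ncbi_515200), a lysosomal proteinase, was at 0.888 ± 0.370 CPM in BEFs, 4.07 ± 0.570 CPM in CiADCs-3d and 7.01 ± 0.0904 CPM in CiADCs-6d and rose by 2.18 and 2.96 (adjusted p = 2.89e-05 and 1.35e-06). MMP9, another gelatinase, was at 2.16 ± 0.434 CPM in BEFs, 0.731 ± 0.172 CPM in CiADCs-3d and 0.246 ± 0.0965 CPM in CiADCs-6d and was lower on both days (-1.56 and -3.13), and PEPD, which splits proline-containing dipeptides, was lower in CiADCs-6d (-1.09).

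Between the days, 2 of the 62 genes were higher in CiADCs-6d than in CiADCs-3d and 3 were lower, where 4.09% and 3.22% of all tested genes were. The higher ones were MMP1 at 2.29 (SE 0.28, adjusted p = 0.000276) and ITGA10 at 1.15 (SE 0.19, adjusted p = 0.00147). The lower ones were FAP at -1.70 (SE 0.21, adjusted p = 0.000321), MMP9 at -1.57 (SE 0.44, adjusted p = 0.0213) and ITGA11 at -1.30 (SE 0.20, adjusted p = 0.000947).

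**Figure D5:**
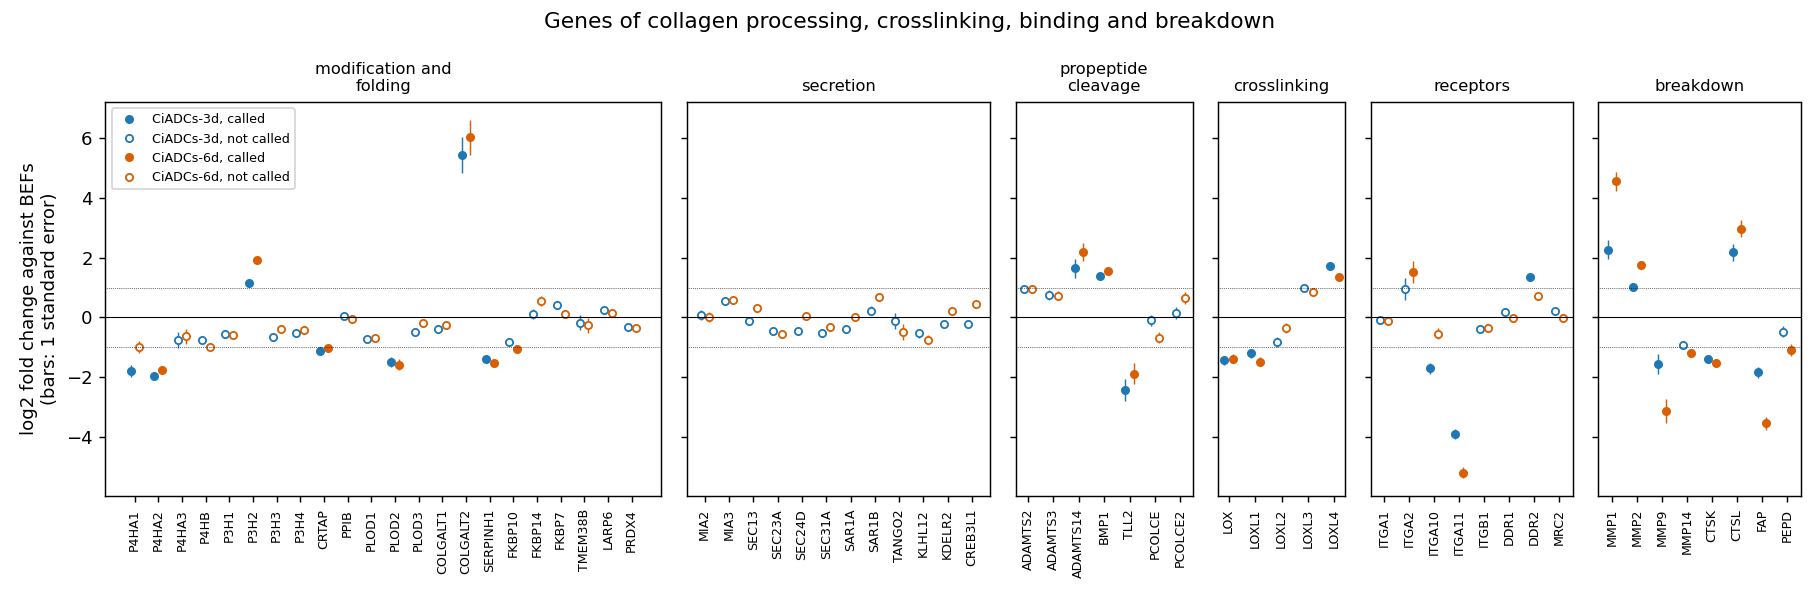
The log2 fold change against BEFs (vertical axis, bars of 1 standard error) of the 62 tested genes of collagen processing, crosslinking, binding and breakdown, in panels by step, for CiADCs-3d (blue) and CiADCs-6d (orange), with filled points for called genes, open points for the others and dotted lines at -1 and 1. ITGA11 is lowest, at -3.88 and -5.18 on days 3 and 6, and the 12 genes of secretion have open points on both days.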

How the data were processed

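RNA of 9 samples, 3 per group, was sequenced in bulk. The authors deposited 1 table with 21512 genes that gives, for each sample, an expected count and an FPKM value, the count scaled for the length of the gene and the size of the library. Expected counts are estimates that need not be whole, and they were rounded here. The submitters' processing notes list, with no roles given, StringTie 1.3.1, RSEM, HISAT2 2.2.4 and fastp 0.18.0, while the methods of the study name TopHat and HTSeq. The labels name a kit that removes ribosomal RNA, and the methods a selection by poly(A). The genome build is not given in the sources used here. How a read that fits several genes was counted therefore could not be settled, and collagen chains with near-identical stretches are uncertain to that extent.

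Counts were tested with edgeR 4.0.16 in R 4.3.3 (TMM factors, filterByExpr with a count minimum of 10 and a total of 15, quasi-likelihood F test, 1 fit over all 9 samples with no block). This left 14020 genes, and p-values were adjusted over all of them by the Benjamini-Hochberg method. A call needs an adjusted p under 0.05 and a log2 fold change of at least 1 in size. Chain ratios were compared with exact permutation tests. Groups came from the sample labels. limma 3.58.1, DESeq2 1.42.0, other scalings, filters and sample sets served as alternatives. The scripts were tested on simulated data.

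Symbols were matched without regard to case, and 44 of the 45 members matched RefSeq (ARS-UCD2.0), which served for names and gene order only. The member that did not match, COL6A4, has a locus name there in place of that symbol. Named with values per sample were COL1A1, COL1A2, COL3A1, COL4A1, COL4A2, COL5A1, COL5A2, COL6A1, COL6A2, COL6A3 and each other tested member with a mean of at least 10 CPM in any group. Of each list of processing genes, up to 4 called genes of at least 10 CPM with the largest change on day 6 were named, and P4HA1, P4HB, SERPINH1, PLOD2, BMP1, LOX, DDR2 and MMP14 in any case. COLGALT2, TLL2, CRTAP, FKBP10, ITGA2, ITGA10, MMP9, CTSL and PEPD were named after their values were seen. The members and lists were chosen with earlier results of these data known. The reading of mixed-case symbols and the ratio of COL3A1 to COL1A1 were decided after the data were seen.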

Additional observations from a re-analysis of the deposited data

Results flagged for a closer look

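Several collagen genes were singled out because the test of CiADCs-6d against CiADCs-3d passed, which is also the test that their change against BEFs differed between the days. The log2 fold change between the days was -1.16 for COL1A1, -1.13 for COL1A2 and -1.20 for COL5A3, all of which were also lower in CiADCs than in BEFs on both days. It was -3.05 for COL21A1, -1.51 for COL6A6 and -1.35 for COL6A5, all of which were higher in CiADCs than in BEFs on both days. COL25A1, at 1.56 between the days, rests on few counts.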

How the results depend on the processing

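The 88 log2 fold changes of single collagen genes were recomputed under 1652 combinations of gene, comparison and alternative. Of these, 1573 kept their direction and their side of the threshold, 57 lost the call, 14 gained it and 8 changed sign. The count of collagen genes called higher was 5 on day 3 and 5 on day 6 against BEFs when at least 10 counts were asked in every sample, since 28 members then remain. With limma on log2(FPKM + 1), which shrinks the changes of genes with low FPKM, it was 5 on day 3 and 1 on day 6. By adjusted p alone, 17 of the 36 tested collagen genes were lower in CiADCs-3d. Of the 62 tested processing genes, 15 were then higher and 32 lower on day 3, and 18 higher and 28 lower on day 6. By the same rule, 30.9% of all tested genes were higher and 29.1% lower on day 3, and 35.6% and 31.9% on day 6. Between the days, 2 collagen genes were higher and 14 lower, and 12 processing genes higher and 7 lower. Of all tested genes, 14.4% and 13.6% were higher and lower between the days by this rule. The 1 higher call between the days, COL25A1, became 0 with DESeq2, with no filter, with at least 10 counts in every sample, with limma on log2(FPKM + 1) or log2(FPKM + 0.1) and with only the 2 groups compared, ran from 0 to 1 with 1 sample left out, and became 2 without both CiADCs samples numbered 1. With limma on log2(FPKM + 1), 3 collagen genes were lower between the days, and 1 processing gene was higher and 1 lower, and without both samples numbered 1 the higher processing genes were 4. Of the collagen share, 4.01%, 1.90% and 1.51% of all counts remained on days 0, 3 and 6 without COL1A1, COL1A2 and COL3A1, and of the summed FPKM collagens took up 3.98%, 1.91% and 1.29%. With capital symbols only, an alternative added after the data were seen, the calls were 10 higher and 8 lower on day 3 and 11 higher and 13 lower on day 6.

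Values near 0 changed sign. COL27A1 in CiADCs-6d against BEFs ran from -0.33 to 0.029 with 1 sample left out. COL5A1 between the days was -0.000668 with DESeq2, -0.040 with upper-quartile scaling, -0.062 without both samples numbered 1, and ran from -0.12 to 0.12 with 1 sample left out. COL4A1 between the days was 0.028 without both samples numbered 1. Over all genes, calls moved by over 1.5 times with the stricter filter (1692 higher in CiADCs-3d, 320 higher and 299 lower between the days), with limma on log2(FPKM + 1) (1438 higher in CiADCs-3d, 1844 higher and 1224 lower on day 6, 228 and 97 between the days) and without both samples numbered 1 (887 and 1080 between the days), and lower calls between the days were 293 without replicate 3 of CiADCs-3d, and 295 and 832 without replicates 3 and 1 of CiADCs-6d.

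The replicate numbers were tried as a block. Samples with the same number did not all deviate together. Their correlations were 0.0175, -0.0304 and 0.0152 between CiADCs-3d and BEFs, and 0.00824, 0.145 and 0.0579 between CiADCs-6d and BEFs. Between CiADCs-6d and CiADCs-3d they were -0.372, -0.207 and -0.131. With 3 samples per group, these values cannot settle whether a number marks a shared animal or induction. With the block, collagen calls were 11 higher and 9 lower on day 3, 12 higher and 15 lower on day 6, and 0 higher and 6 lower between the days. Collagen genes under 10 CPM rest on few counts, and each group holds 3 samples.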
